A study of Danio rerio with 7 samples.

Results

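The genes examined were those that encode the proteins of the cytoplasmic ribosome, chosen by name (*rpl* or *rps* followed by a digit, *rplp* followed by a digit, *rpsa* and *faua*, without the S6 kinases). Bulk RNA-seq held 84 of them among 20402 genes and single-cell RNA-seq 86 among 20141, with 83 in both and 87 in either. Of the 84, 47 were assigned to the large subunit because their names start with *rpl*, and the remaining 37 to the small subunit. The names also took in 6 genes ending in l, l1 or bp1 (*rpl7l1*, *rpl22l1*, *rplp2l*, *rps26l*, *rps27l* and *rps19bp1*), which leaves 78 with the plain name of a structural protein.

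All tumors were zebrafish skin melanomas made by electroporating plasmids into adult *casper*;p53-/- fish that carry an activated *BRAF* transgene under the *mitfa* promoter. The plasmids held a *mitfa* rescue minigene with tdTomato, *mitfa*-driven Cas9 and guides against *ptena* and *ptenb*, so these alterations were shared by every sample. For bulk RNA-seq, tdTomato+ cells were sorted from tumors with a further non-targeting guide (sgNT, 3 libraries) or a guide against *dgat1a* (sgDGAT1a, 3 libraries), an enzyme that makes triacylglycerol for lipid droplets. For single-cell RNA-seq, cells of tumor and adjacent tissue from male and female fish were pooled into 1 library of 3968 cells, which the authors annotated as 5 melanoma states or tumor microenvironment (TME). Cas9 leaves a mixture of edited and unedited cells in a tumor, and the labels do not say how many fish stand behind each bulk library, so p-values measure the spread between these libraries only.

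The cytoplasmic ribosome joins a small subunit, which reads the mRNA, to a large subunit, which forms the peptide bond. Its proteins are needed in about equal numbers and are among the most abundant transcripts of growing cells. In vertebrates their mRNAs start with a terminal oligopyrimidine tract, through which mTOR and Larp1 adjust their translation as a group. Several ribosomal proteins in teleosts exist as duplicated genes, and the paralogs can be used to different extents in different cells.

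The targeted gene followed its labels. *dgat1a* was at 799, 747 and 405 normalized counts in the sgNT libraries 1, 2 and 3 and at 216, 231 and 240 in those of sgDGAT1a, and it was lower by limma (log2 fold change -1.44, SE 0.32, adjusted p = 0.0265). Without sgNT 1, sgNT 2, sgDGAT1a 1 or sgDGAT1a 2 its log2 fold change was -1.26, -1.31, -1.40 and -1.45 and its limma adjusted p 0.114, 0.103, 0.0974 and 0.101, so that the call was lost at folds of about the same size. Its paralog *dgat1b* did not pass (log2 fold change 0.57, SE 0.30, limma adjusted p = 0.234). Deposited values summed to between 19183900 and 23287400 normalized counts per library, and the raw depth is unknown. Melanophore markers, 9 of 9 listed, summed to between 109050 and 154307 in sgNT, to 125160 and 122645 in sgDGAT1a 1 and 2 and to 521426 in sgDGAT1a 3, which stood apart.

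The share of all normalized counts that fell on ribosomal protein genes overlapped between the guides. It was 2.96% in sgNT 1, 3.79% in sgNT 2 and 1.96% in sgNT 3, against 2.14% in sgDGAT1a 1, 2.41% in sgDGAT1a 2 and 3.44% in sgDGAT1a 3. On average it was 2.90% ± 0.92 with sgNT and 2.67% ± 0.69 with sgDGAT1a (SD, n = 3 each), and the lowest and the highest library were both of sgNT. Large-subunit genes held 1.71% ± 0.57 in sgNT and 1.56% ± 0.40 in sgDGAT1a, and small-subunit genes 1.20% ± 0.35 and 1.11% ± 0.28 (SD, n = 3 each). In sorted bulk cells, fewer cells of a type and less RNA per cell cannot be told apart.

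**Figure D1:**
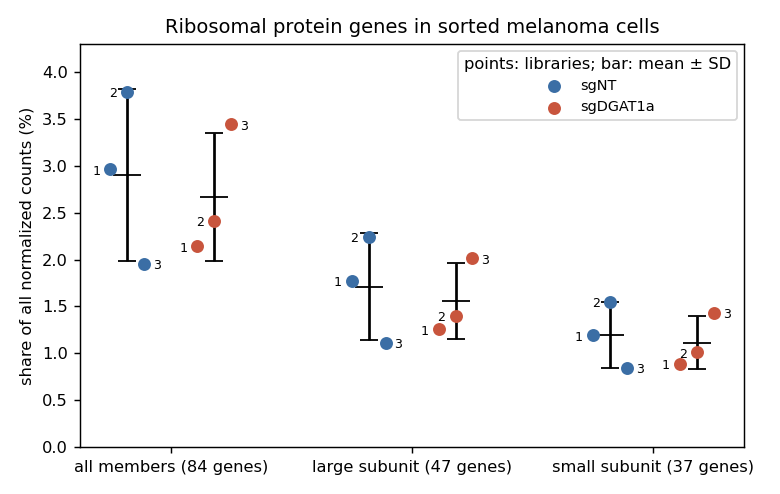
Share of all normalized counts (%, vertical axis) held by all ribosomal protein genes and by those of each subunit in 3 sgNT (blue) and 3 sgDGAT1a (red) libraries; points are libraries with their number, bars the mean ± SD. For all genes the sgNT libraries span 1.96% to 3.79% and the sgDGAT1a libraries 2.14% to 3.44%.

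None of the ribosomal protein genes passed the thresholds between the guides. Of 83 genes with a mean of at least 10 normalized counts, 0 were called by limma (adjusted p under 0.05 and beyond 1 on the log2 scale), where 8.70% of all 16969 genes were called higher and 3.31% lower in sgDGAT1a. At adjusted p alone 0 passed (13.2% of all genes) and at unadjusted p under 0.05 there were 3, *rps2*, *rpl19* and *rpl7l1* (31.9% of all genes). The lowest adjusted p was 0.130, for *rpl19*. The median log2 fold change was -0.16, with 36 of 83 above 0, beside 0.02 and 51.0% over all genes. It was -0.12 for the large subunit (22 of 47 above 0) and -0.23 for the small subunit (14 of 36 above 0). The remaining gene was at 3.61 normalized counts or fewer in every library.

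The genes nonetheless spread in both directions. The largest positive difference was for *rps8b*, a copy of the small-subunit protein gene *rps8a*, at 34.7, 40.5 and 18.6 normalized counts in sgNT and 42.8, 74.1 and 72.3 in sgDGAT1a (log2 fold change 1.02, SE 0.55, limma adjusted p = 0.246). It was a scarce transcript, but its groups did not overlap. *rpl5b*, a copy of the gene for the protein that carries 5S rRNA into the large subunit, was at 2098, 2624 and 2366 in sgNT and 2918, 3128 and 7294 in sgDGAT1a (log2 fold change 0.78, SE 0.35, limma adjusted p = 0.165). The sgDGAT1a 3 library was far above the others here. *rpl19*, for a large-subunit protein that forms a bridge to the small subunit, was at 11723, 15445 and 11585 in sgNT and 16402, 19090 and 30724 in sgDGAT1a (log2 fold change 0.73, SE 0.30). *rps2*, for a protein at the mRNA entry channel, was at 26300.5, 32866 and 25399 in sgNT and 36496, 42422 and 64565 in sgDGAT1a (log2 fold change 0.73, SE 0.30, limma adjusted p = 0.140). These 4 genes were the ones whose sgDGAT1a libraries all lay above the sgNT libraries, and 0 of 83 lay below, where 36.9% of all genes did not overlap, 21.1% higher and 15.9% lower.

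At the other end stood *rps29*, for a small protein of the head of the small subunit, with 2859, 4879 and 1639 normalized counts in sgNT and 1100, 1465 and 2494 in sgDGAT1a (log2 fold change -0.84, SE 0.44, limma adjusted p = 0.228). *rplp1*, for a protein of the stalk that recruits elongation factors, was at 25463, 37008 and 10763 in sgNT and 9579, 11777 and 19568 in sgDGAT1a (log2 fold change -0.73, SE 0.47). In both genes the sgNT 3 library lay inside the sgDGAT1a range, and sgDGAT1a 3 above sgNT 3. *rpl35a* (log2 fold change -0.70), *rps18* (-0.62) and *rps12* (-0.61) came next. *rplp0*, for the base of the stalk and often used as a reference gene, had a log2 fold change of 0.00 (SE 0.40), and *rps6*, the substrate of the S6 kinases, one of -0.27 (SE 0.35). *rpsa* (-0.48), *faua* (-0.44), whose product is made as a fusion with a ubiquitin-like protein, and *rpl39* (0.10), for a protein of the peptide exit tunnel, did not pass either.

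These values changed with the library left out. The median log2 level of the 83 genes stood 0.09 and 0.68 above the mean over libraries in sgNT 1 and 2 but at -0.51 in sgNT 3, and at -0.52 and -0.26 in sgDGAT1a 1 and 2 but at 0.51 in sgDGAT1a 3. The sgDGAT1a 3 library was also the one with the high melanophore sum, whose part in these values was not tested. Without sgNT 3, limma called 6 genes, all lower in sgDGAT1a: *rplp1* (log2 fold change -1.24, limma adjusted p = 0.0304), *rps29* (-1.23), *rpl35a* (-1.22), *rpl14* (-1.13), *rpl11* (-1.08) and *rps18* (-1.06), where 8.08% of all genes were called lower. Without library 3 of either group, an alternative chosen after seeing the data, it called 24, all lower, where 11.4% of all genes were called lower, and the median log2 fold change was -0.73. The genes called then included *rpl5a* (-1.27), *rps3* (-1.26), for a small-subunit protein at the mRNA entry channel, and *rps8a* (-1.16). The median was -0.47 without sgNT 3 and -0.41 without sgDGAT1a 3, but 0.15 without sgNT 2 and 0.06 without sgDGAT1a 1, so that other libraries moved it about as far.

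The spread between libraries was smaller once each was set on its own ribosomal protein level. The SD of the log2 level over the 6 libraries had a median of 0.57 over the genes as deposited, and of 0.24 once each library was set relative to the median of its own ribosomal protein genes. That scaling was chosen after seeing the data, and it removes spread from these genes by construction. On it, the libraries of sgDGAT1a were alike, with a median absolute difference per gene of 0.07 to 0.11 on the log2 scale, as were sgNT 1 and 2 (0.10). The sgNT 3 library differed from sgNT 1 and 2 by 0.23 and 0.26, and from the sgDGAT1a libraries by 0.23 to 0.32.

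Relative to that median, limma called none of these genes between the guides, although many did not overlap. The sgDGAT1a libraries lay above every sgNT library for 32 of 83 genes and below for 15, where the same scaling gave 13.3% higher and 5.81% lower over all genes, 19.2% in all. The genes that set the scale are not comparable with other genes in this count, and on the deposited scale 4 did not overlap. Limma on this scale called 0 of 83, with 5 at unadjusted p under 0.05 and a lowest adjusted p of 0.172, for *rps2*. Its prior variance comes from all genes, which were rescaled by the same library offsets. For *rps12* it gave a log2 fold change of -0.43 with an SE of 0.33. The lack of calls therefore does not show that these genes were alike on this scale. Without sgNT 1, 51 genes did not overlap (20.9% of all genes), without sgNT 2, 52 (29.7%), and without sgNT 3, 66 (41.3%). Without sgDGAT1a 1, 2 or 3 there were 50 (24.8%), 50 (21.2%) and 51 (40.5%).

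The relatively higher genes were 19 of 47 of the large and 13 of 36 of the small subunit (13.3% of all genes). The relatively lower ones were 10 and 5 (5.81% of all genes), on the scale that these genes set. *rps2* lay at 2.63, 2.35 and 3.18 relative to the library median (log2) in sgNT and at 3.71, 3.66 and 3.50 in sgDGAT1a. *rpl19* lay at 1.46, 1.27 and 2.04 in sgNT and at 2.56, 2.51 and 2.43 in sgDGAT1a. In both genes the libraries of sgDGAT1a were closer to each other than those of sgNT. *rpl3*, for a protein close to the peptidyl transferase center, went from 2.83, 2.38 and 2.94 to 3.49, 3.27 and 3.17. In the other direction, *rps12* lay at 0.29, 0.26 and 0.06 in sgNT and at -0.18, -0.26 and -0.25 in sgDGAT1a, and *rps18* at 0.81, 0.78 and 0.35 against 0.24, 0.24 and 0.14. In each of these 5 genes sgNT 3 was the sgNT library nearest to those of sgDGAT1a.

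**Figure D2:**
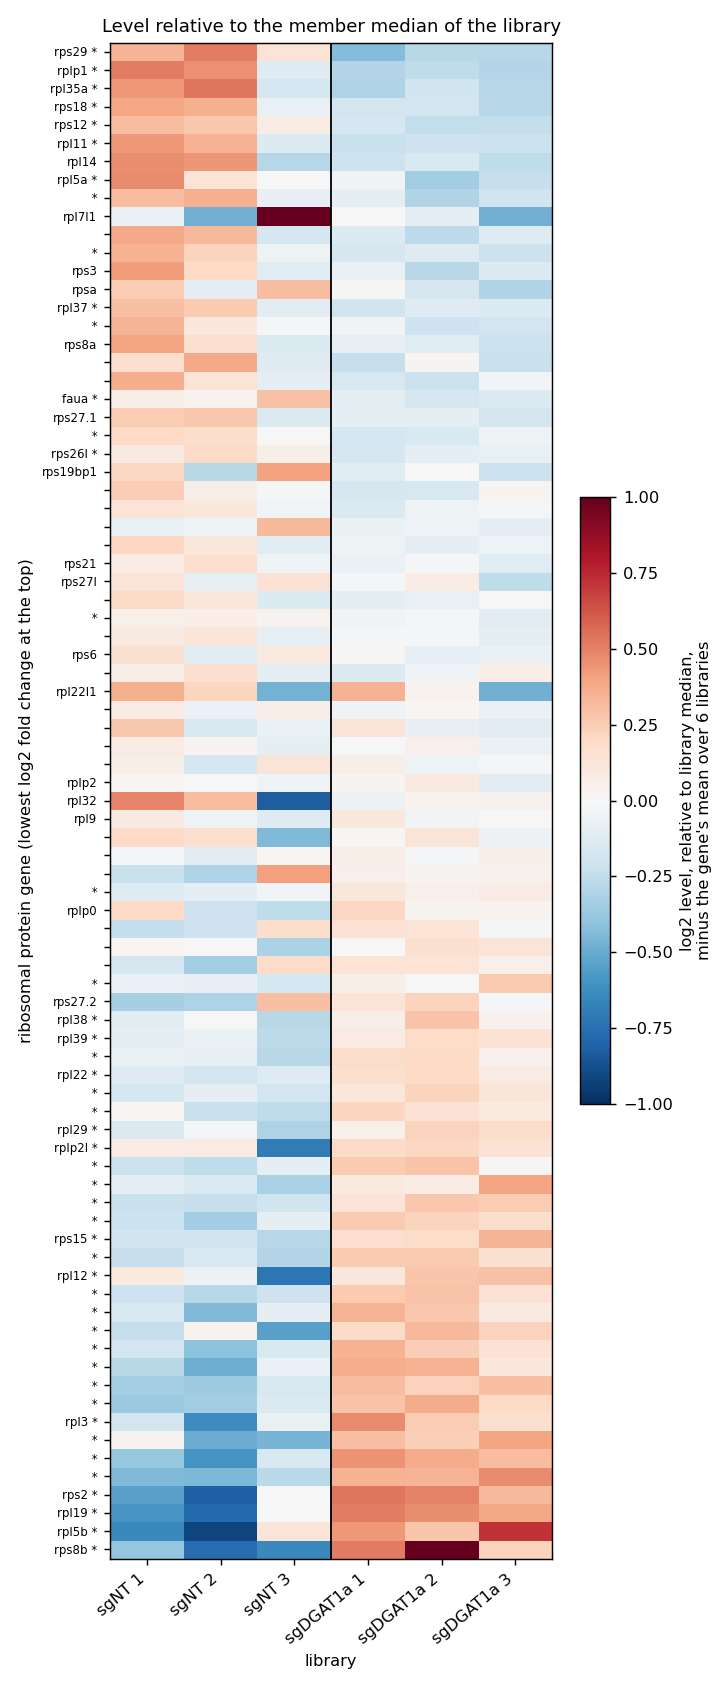
Heat map of 83 ribosomal protein genes (rows, lowest log2 fold change as deposited at the top) in 6 libraries (columns); color is the log2 level relative to the median of these genes in the library, minus the gene's mean over the libraries, with the scale ending at -1 and 1, and the genes named in the text are labelled. Asterisks mark the 47 genes whose groups do not overlap, 32 higher and 15 lower in sgDGAT1a, on a scale that these genes set. On it 13.3% of all genes lay higher and 5.81% lower. In *rps29*, *rps2* and *rpl19* sgNT 3 is paler than sgNT 1 and 2, and in *rpl7l1*, *rpl12* and *rpl32* it is darker.

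Markers of several other cell types moved with the guide. Of all genes 8.70% were called higher, and in 21.1% the sgDGAT1a libraries all lay above the sgNT libraries. Of the 9 melanophore markers 1 was called higher. Summed keratinocyte markers (7 of 7 listed, 7 called higher) were at 14132 to 88980 normalized counts in sgNT and 171789 to 262898 in sgDGAT1a, and fibroblast markers (5 of 5, 5 called) at 19283 to 23074 and 91683 to 123711. Skeletal muscle markers (7 of 7, 6 called) were at 911 to 5649 and 21443 to 65107. Erythrocyte (5 of 5), endothelial (4 of 4), T cell (5 of 6) and macrophage (8 of 8) markers did not overlap either and were higher in sgDGAT1a, with 2, 2, 2 and 0 called. Neutrophil (4 of 4), B cell (3 of 4) and Schwann cell (3 of 3) markers overlapped, with 2, 0 and 0 called higher. None of the listed markers was at 0 in every library, and sgNT 3 had the highest keratinocyte and muscle sums of the sgNT libraries. The part of these cells in the ribosomal protein values, and in those of the other genes of translation below, was not tested.

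Among the duplicated genes, the means of the guides lay farthest apart in *rpl5*. *rpl5b* made up 16.5%, 17.2% and 31.8% of *rpl5a* and *rpl5b* together in sgNT and 37.4%, 39.9% and 45.5% in sgDGAT1a. The sgDGAT1a libraries all lay higher, by 19.1 percentage points on average, and sgNT 3 lay between the other libraries (two-sided exact permutation p = 0.1, which is the lowest value that 3 against 3 libraries can give, and 0.2 adjusted over 8 pairs). Its partner *rpl5a* was at 10613, 12615 and 5067 normalized counts in sgNT and 4875, 4722 and 8736 in sgDGAT1a (log2 fold change -0.58, SE 0.39, limma adjusted p = 0.344). Bulk values are not scaled for transcript length, so a share within a pair can be compared between libraries but does not give the share of molecules, and reads of near-identical copies are divided by estimation.

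Of the 7 other pairs, 3 did not overlap between the guides. No such share was computed for pairs of other genes, and 36.9% of all single genes did not overlap as deposited. *rps8b* made up 0.222%, 0.202% and 0.261% of its pair in sgNT and 0.581%, 0.858% and 0.524% in sgDGAT1a. *rplp2l*, a second gene for a stalk protein, made up 46.0%, 46.2% and 34.1% in sgNT and 47.9%, 46.8% and 49.5% in sgDGAT1a, a difference of 5.92 percentage points that was 1.92 without sgNT 3. *rps26l* went the other way, with 61.2%, 63.7% and 63.5% against 58.3%, 58.6% and 61.0%, so that sgNT 1 and sgDGAT1a 3 nearly met. Each had the same exact p as the *rpl5* pair. The shares of *rpl22l1* (15.7% ± 3.88 and 12.6% ± 2.83), *rpl7l1* (23.1% ± 12.2 and 20.8% ± 2.39), *rps27.2* (32.2% ± 9.22 and 39.3% ± 1.32) and *rps27l* (19.0% ± 3.53 and 20.2% ± 1.38) overlapped (mean ± SD in sgNT and sgDGAT1a, n = 3 each, exact permutation p of 0.3 to 1).

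**Figure D3:**
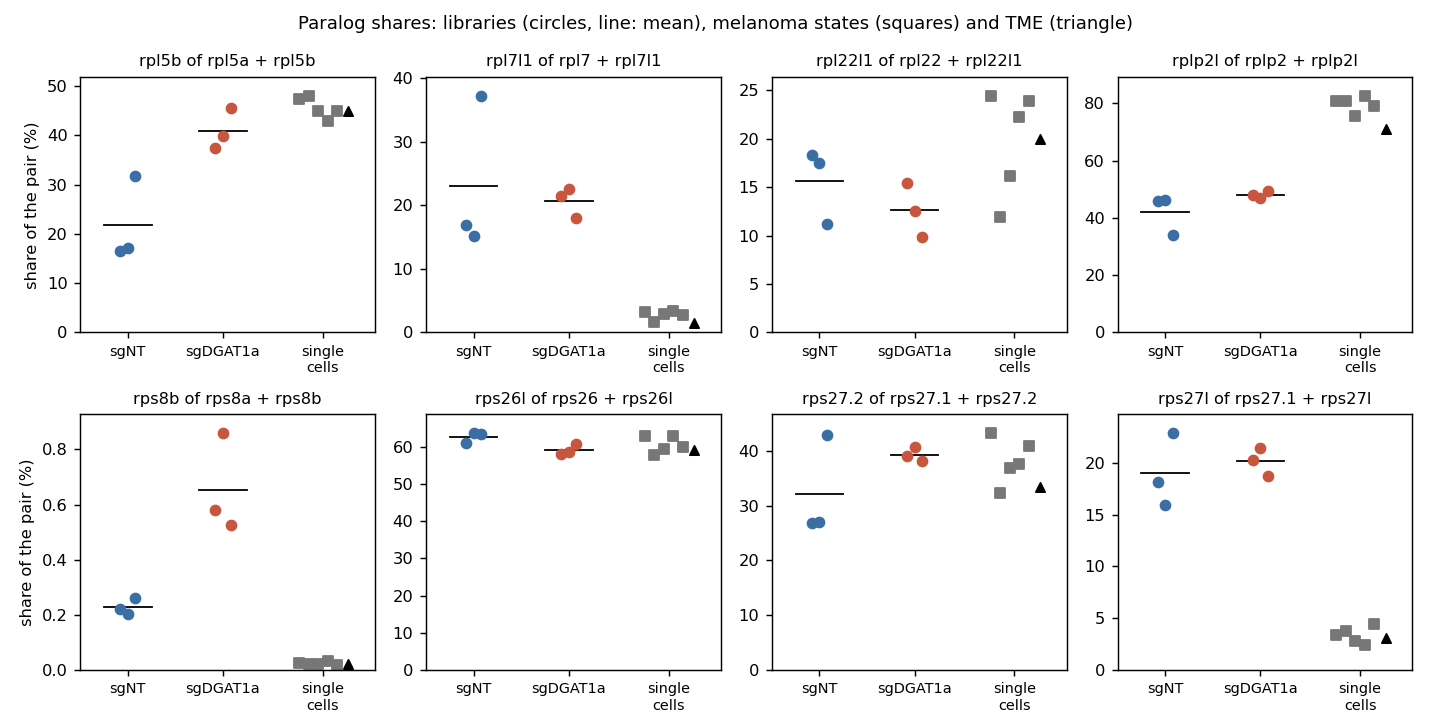
Share of a paralog in the summed values of its pair (%, vertical axis) for 8 pairs; circles are bulk libraries in the order 1 to 3 with a line at the mean, squares the melanoma states in the order stressed, inflammatory, melanocytic, proliferative and invasive, and the triangle the TME. The *rpl5b* share is 16.5% to 31.8% in sgNT and 37.4% to 45.5% in sgDGAT1a; single-cell shares count transcript ends and are on another scale than bulk shares.

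Among the genes that build ribosomes some were lower in sgDGAT1a. Of 40 ribosome biogenesis genes 6 were called lower (3.31% of all genes) and 0 higher (8.70% of all genes). A log2 fold change above 0 was seen in 4 (51.0% of all genes), with a median log2 fold change of -0.66. *npm1a*, for the nucleolar chaperone nucleophosmin, was at 20806, 23008 and 18558 normalized counts in sgNT and 8261, 8805 and 10208 in sgDGAT1a (log2 fold change -1.19, SE 0.22, limma adjusted p = 0.0165). *ebna1bp2* (-1.32), *utp15* (-1.22), *bop1* (-1.19), *ddx56* (-1.11) and *ddx18* (-1.02), which act in the assembly or processing of pre-ribosomes, were lower too. Of 74 mitochondrial ribosomal protein genes 0 were called (median -0.24), and of 5 RNA polymerase I genes 0 (median -0.24), beside the same shares of all genes.

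Other genes of translation gave single calls, beside 8.70% of all genes called higher and 3.31% called lower. Among 63 genes grouped only by an initiation factor name, *eif2b3* and *eif5a2* were lower (both -1.13, limma adjusted p of 0.0396 and 0.0471). Among 16 genes with an elongation factor name *eef2l2* was higher (1.97). Of 24 genes outside the ribosome known in mammals to carry a terminal oligopyrimidine tract, *npm1a* alone was called (median -0.10). Of 11 regulators *mdm2*, for a ubiquitin ligase that free Rpl5 and Rpl11 bind in mammals, was lower, from 4188, 4938 and 3506 to 1968, 1652 and 2150 (log2 fold change -1.12, SE 0.22, limma adjusted p = 0.0188). Of 10 S6 kinase genes 0 were called.

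In single cells the share of ribosomal UMIs differed between the annotated states. The melanoma states held 2678 cells and the TME 1290. The states are clusters made from the expression of the same cells of 1 library, so all values by state are descriptions with no test. Melanophore markers summed to a mean of 80.5 corrected counts per cell in the melanocytic state, 5.21 to 15.0 in the other melanoma states and 1.72 in the TME. Keratinocyte and macrophage markers summed to 75.2 and 80.1 in the TME. Among the melanoma states keratinocyte markers were highest in invasive cells, at 9.05 against 0.601 to 2.02 in the others, and macrophage markers in inflammatory cells, at 4.95 against 1.15 to 1.79. Schwann cell markers (3 of 3) summed to 7.01 in invasive cells and to 0.0785 or less in every other group.

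Of all raw UMIs of a state, 36.98% were ribosomal in stressed cells (exact Clopper-Pearson 95% interval 36.95 to 37.01), 36.57% in inflammatory (36.53 to 36.61), 32.99% in proliferative (32.95 to 33.02), 32.92% in melanocytic (32.89 to 32.95) and 29.04% in invasive cells (28.99 to 29.09). TME cells had 23.46% (23.43 to 23.49). The intervals cover counting error only, and those of the proliferative and melanocytic states touched. From the deposited corrected counts the shares were 34.1% (stressed), 34.5% (inflammatory), 30.8% (proliferative), 31.2% (melanocytic), 26.6% (invasive) and 23.5% (TME). The order inside the first and the second pair of states thus turned with the measure, while the invasive state, in which Schwann cell and keratinocyte markers were also higher, stayed lowest of the melanoma states and the TME lower still. The part of those cells or genes in the invasive share was not tested.

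Cells within a state varied widely. Medians per cell were 35.7% in stressed, 34.2% in inflammatory, 32.8% in proliferative, 30.6% in melanocytic, 26.7% in invasive and 20.6% in TME cells, and single cells ran from 1.16% to 69.0%. Depth also differed between the states, lowest in TME and invasive cells, but among the others not in the order of the share. The median raw UMI count was 5165.5 in the TME, 7979 in invasive, 8546 in inflammatory, 9768 in melanocytic, 10341 in stressed and 15141 in proliferative cells. Among cells with 10000 to 20000 UMIs the medians were 38.1% in 386 stressed cells, 36.7% in 167 inflammatory, 32.9% in 127 proliferative, 30.4% in 159 melanocytic, 30.4% in 90 invasive and 24.1% in 252 TME cells. In this class the melanocytic and invasive states were level and the TME was lowest. In the 4 other classes invasive cells had the lower median, with 13.8% against 22.0% below 2000 UMIs, 17.5% against 29.4% up to 5000, a smaller gap up to 10000, and 31.3% against 35.5% from 20000, where 18 invasive cells were left. Below 2000 UMIs the 20 stressed cells had a median of 5.41% and the 325 TME cells one of 12.2%. Between 2000 and 5000 UMIs the 296 TME cells had a median of 19.6%, above the 17.5% of 64 invasive cells. In the other classes the TME median was below the invasive one. The part of depth in the differences between states was not tested beyond these classes.

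**Figure D4:**
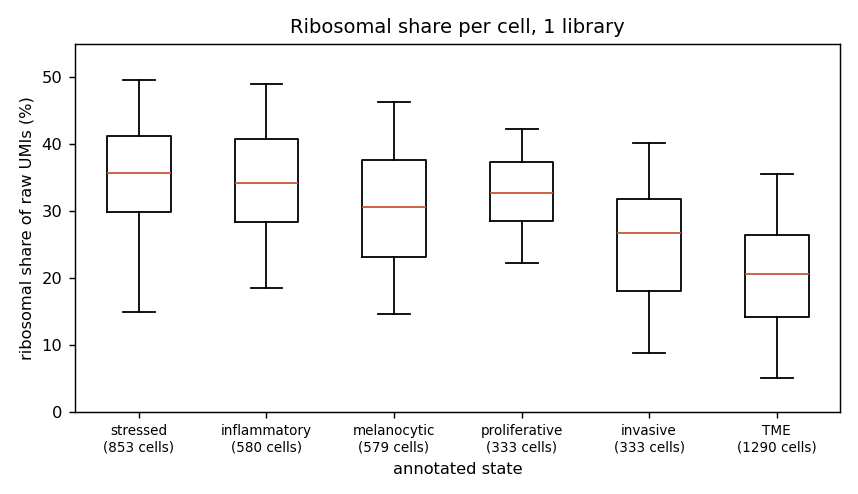
Ribosomal share of the raw UMIs of a cell (%, vertical axis) by annotated state in 1 library; boxes give the quartiles and the median (red line), whiskers the 5th and 95th percentiles. Medians fall from 35.7% in stressed to 26.7% in invasive and 20.6% in TME cells, and the boxes of all melanoma states overlap.

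Nearly all ribosomal protein genes had a lower share in invasive than in other melanoma cells, while in the other states the genes went both ways. A gene needed 50 corrected counts or more in the melanoma cells, which 85 of 86 had, and its share in a state was divided by that in the other 4 states. In the invasive state 84 of 85 genes were lower (median log2 ratio -0.30), and 1 was above 0, where 52.9% of 11776 genes were. In the stressed state 67 of 85 were above 0 (median 0.13, 55.6% of all genes), and in the inflammatory state 61 (median 0.11, 32.6%). In the melanocytic state 30 were above 0 (median -0.07, 34.3%) and in the proliferative state 20 (median -0.09, 57.2%). The SD over genes exceeded the size of the median in the inflammatory (0.26), melanocytic (0.15), proliferative (0.24) and stressed (0.16) states, but not in the invasive state (0.11). These SDs take in scarce transcripts, such as *rpl9* and *rpl37*, and were not recomputed without them. In the TME against all melanoma states 2 of 85 were above 0 (median -0.46, 22.4%). Shares sum to the whole, and these genes hold up to 34.5% of it, so a higher share here lowers the shares of other genes.

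Medians of both subunits had the same sign in each melanoma state. In the invasive state the median log2 ratio was -0.28 for the large and -0.32 for the small subunit, in the stressed state 0.12 and 0.14, and in the inflammatory state 0.07 and 0.11. In the melanocytic state it was -0.05 and -0.09, and in the proliferative state -0.11 and -0.04. Among the genes with the plain name of a structural protein that were measured (79), the SD of the log2 ratio over genes was smallest in the invasive state, at 0.11, and 0.14 to 0.21 in the other melanoma states. These genes include the scarce entries *rpl9* and *rpl37*. *rpl9* set the extreme in stressed (-0.54) and proliferative cells (1.14), and *rpl37* in inflammatory cells (-0.96). The SD was not computed without these entries, so its size by state depends in part on them.

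Several of the genes farthest from the group had scarce transcripts. *rpl7l1*, for a relative of Rpl7 that in yeast has an assembly factor as its counterpart, had a mean of 1.09 corrected counts per stressed cell, 1.03 per proliferative, 0.753 per melanocytic, 0.682 per invasive, 0.440 per inflammatory and 0.236 per TME cell. *rps19bp1*, for a nucleolar protein that binds Rps19, followed with 0.447 per proliferative, 0.354 per stressed and 0.210 per inflammatory cell. Both were thus highest in the stressed and proliferative states and lowest, among melanoma states, in the inflammatory one. *rps27l*, a paralog that is a p53 target in human cells, went the other way between the inflammatory and the proliferative state, with 1.27 per inflammatory, 0.878 per stressed and 0.526 per proliferative cell (log2 ratio 0.70 in inflammatory and -0.88 in proliferative cells). *rpl22l1* had a log2 ratio of 0.54 in stressed and -0.61 in inflammatory cells.

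Abundant genes differed less. *rps21* and *rps27.1*, of the small subunit, had the highest log2 ratios of abundant genes in inflammatory cells (0.45 and 0.45), with 56.0 against 41.3 and 32.3 against 23.8 corrected counts per cell. *rpl29* was at 35.0 per inflammatory, 32.0 per melanocytic, 28.1 per proliferative, 26.4 per stressed and 20.4 per invasive cell, which gave it the lowest log2 ratio of the 85 genes in the invasive state (-0.54) and one of -0.22 in the stressed state. *rps15* (-0.53) was the next lowest in invasive cells. In melanocytic cells *rpl11* (0.30), for the partner of Rpl5 in the 5S particle, was among the 3 highest and *rps20* (-0.34) the lowest. In proliferative cells *rpl22* (-0.36) was low. In the TME *rplp2* (0.35) and *rpl38* (0.18), known in mouse embryos for its role in the translation of Hox mRNAs, were the 2 genes above the melanoma level.

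**Figure D5:**
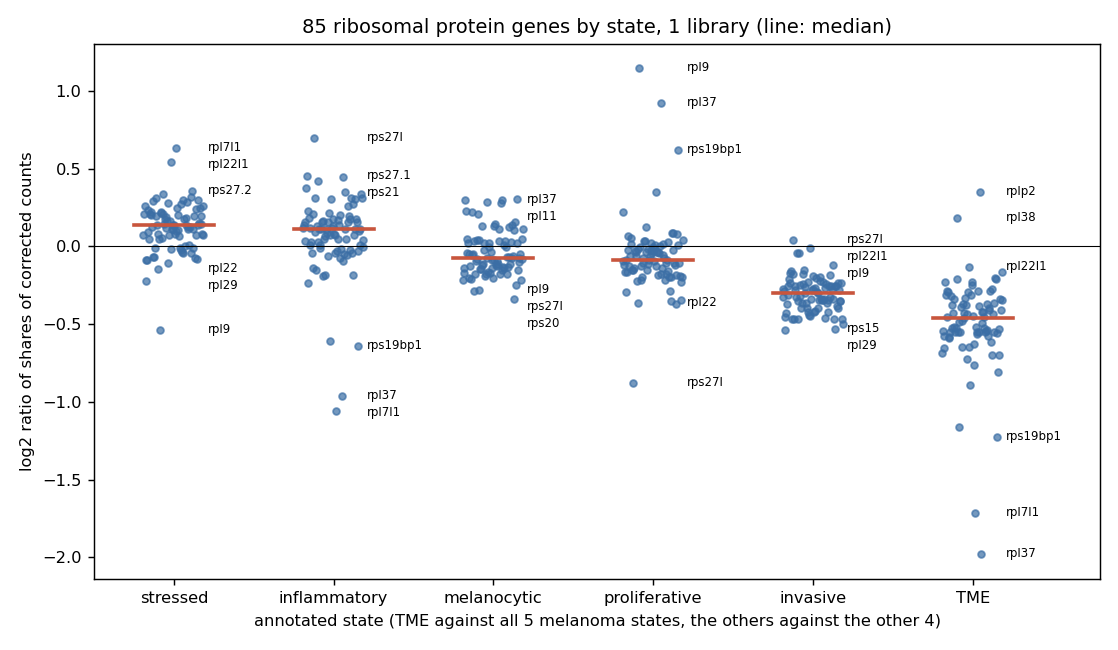
Log2 ratio of the share of corrected counts in a state to that in the other melanoma states (TME against all 5) for 85 ribosomal protein genes, 1 point a gene with the median as a red line and genes among the 3 highest and 3 lowest named. Medians run from 0.13 (stressed) and 0.11 (inflammatory) to -0.30 (invasive) and -0.46 (TME), and the points farthest out are *rpl37* and *rpl7l1* in the TME, at -1.98 and -1.71.

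UMIs are counted at transcript ends and do not scale with length, but corrected counts are a score and some genes are split between entries. The levels below order the entries by corrected counts and do not give molecules per gene. The highest means per melanoma cell were those of *rplp1* (71.9 corrected counts), *rpl39* (69.7), *rpl37.1* (65.4), *rps29* (61.7) and *rps12* (57.2), and *rplp0* followed with 50.4. The 5 lowest were *rps19bp1* (0.305), *rpl9* (0.102), *rpl37* (0.0919), *rps8b* (0.00859) and *rpl7l1* (0.820), just under *rps27l* (0.894). *rpl9* and *rpl37* have second entries, *rpl9.1* (19.3) and *rpl37.1*, that held nearly all of their counts, so the large log2 ratios of *rpl9* and *rpl37* in proliferative cells (1.14 and 0.92) concern 0.198 and 0.159 corrected counts per cell.

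Paralog use varied more by state for some pairs than for others. *rpl22l1* made up 24.4% of its pair in stressed, 23.9% in invasive, 22.2% in proliferative, 16.2% in melanocytic and 11.9% in inflammatory cells. *rpl22* itself was highest in inflammatory cells, at 26.6 corrected counts per cell against 15.8 to 23.5 in the other melanoma states, so the genes of this pair moved in opposite directions there. *rps27.2* made up 43.2% of its pair with *rps27.1* in stressed, 41.0% in invasive, 37.5% in proliferative, 36.8% in melanocytic and 32.4% in inflammatory cells, the same order of states. *rplp2l* ranged from 75.5% in melanocytic to 82.6% in proliferative cells and 71.1% in the TME.

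The shares of *rpl5b* and *rps26l* spanned fewer percentage points. *rpl5b* made up 47.5% of its pair in stressed, 48.0% in inflammatory, 45.0% in melanocytic, 43.0% in proliferative, 44.9% in invasive and 44.9% in TME cells. Single-cell and bulk shares are on different scales. *rps26l* ranged from 57.9% to 63.0%. *rps8b* had 23 corrected counts over all melanoma cells, and its share of 0.0187% to 0.0322% cannot be compared between states at this depth.

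Genes that build ribosomes and the genes for ribosomal proteins had medians of the same sign in stressed, melanocytic and TME cells. The signs were opposite in inflammatory, proliferative and invasive cells. A sign does not place a set among all genes, whose median log2 ratio was 0.06 in stressed and -0.30 in inflammatory cells. That median was -0.26 in melanocytic, 0.11 in proliferative and 0.04 in invasive cells and -0.83 in the TME. Both sets were above it in melanocytic cells and on either side of it in the TME. In invasive cells both sets were below it, the biogenesis median of 0.02 only just. For the 40 biogenesis genes the median log2 ratio was 0.44 in stressed cells (39 of 40 above 0, 55.6% of all genes). It was 0.47 in proliferative cells (38 of 40, 57.2%), but -0.97 in inflammatory cells (1 of 40, 32.6%). Ribosomal protein genes were above 0 in 61 of 85 cases in inflammatory cells. In invasive cells the biogenesis median was 0.02 (22 of 40, 52.9%) and in melanocytic cells -0.21 (8 of 40, 34.3%). In the TME it was -1.30 (1 of 40, 22.4%). Mitochondrial ribosomal protein genes (74) had their highest median in proliferative (0.54) and their lowest of the melanoma states in inflammatory cells (-0.56). The 23 genes outside the ribosome with a terminal oligopyrimidine tract in mammals stood at 0.22 in stressed, -0.19 in inflammatory, -0.16 in melanocytic, 0.04 in proliferative and -0.15 in invasive cells.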

How the data were processed

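Members, gene lists and tests were chosen with earlier results of these data known. Members were taken by name, and genes were named by a rule: the 5 largest changes in each direction, the 5 highest and 5 lowest levels, every member of a paralog pair, members with a fixed role, and by state the 3 highest and 3 lowest ratios. *rpl3*, *rps3* and the genes called without library 3 were picked after their values were seen. Some genes that these rules choose are not reported here.

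For bulk libraries the authors trimmed reads with Trimmomatic, estimated counts with Salmon 1.4.0 on GRCz11 and divided them by DESeq2 1.30.1 size factors. The deposited values are a signal with decimals, not whole reads. 280 lines repeating an identifier were left out, and limma 3.58.1 with a trended prior was fitted on log2(value + 1) to genes with a mean of at least 10, with Benjamini-Hochberg adjustment over all genes. Fold changes are on that scale and understate changes of low genes. Paralog shares were compared by exact permutation tests.

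For single cells the authors used Cell Ranger 6.0.2 and Seurat 4.0.2. The deposited matrix holds SCTransform-corrected counts, treated as a score. The deposited annotation gives raw UMI counts and the percent of ribosomal UMIs per cell, whose gene pattern is not given in the sources used here; percent times UMIs was a whole number for 100% of cells (tolerance 0.01). Cells had at least 201 genes and at most 29.4% mitochondrial UMIs. Ratios used a pseudocount of 0.5 per sum. The authors removed doublets by sorting, and no caller was run. Alternatives covered pseudocounts, filters, scalings, a replicate block, averaged libraries and each library left out. Libraries were averaged because sampling noise cannot be computed without raw counts. Both procedures were tested on simulated data.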

Additional observations from a re-analysis of the deposited data

How the results depend on the processing

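Results for ribosomal protein genes, *dgat1a* and *dgat1b* were recomputed with other pseudocounts, filters, scalings and prior variance, and with the replicate block. They were also recomputed with libraries 1 and 2 of each group averaged and without each library. Calls of markers and of the other genes of translation, *npm1a* and *mdm2* among them, were not followed through these alternatives. The number of ribosomal protein genes called stayed at 0 except without sgNT 3 (0 to 6 over the single libraries left out) and without library 3 of either group, chosen after seeing the data (24). Why these libraries differ was not tested.

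The median log2 fold change ranged from -0.47 to 0.15 with 1 library left out, and was 0.11 with libraries 1 and 2 averaged and 0.01 rescaled to the median of the ribosomal protein genes. The difference in share ranged from -0.711 to 0.207 percentage points.

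Signs turned for these genes. Without library 3 of either group the log2 fold change was -0.44 for *rpl22*, -0.66 for *rplp2l*, -0.28 for *rps27.2*, -0.65 for *rplp0* and -0.56 for *rpl39*. With libraries 1 and 2 averaged it was 0.062 for *rpl22l1*, 0.10 for *rplp2*, 0.11 for *rps26* and 0.013 for *rps6*. Rescaling to the median of the ribosomal protein genes gave 0.0095 for *rplp2*, equal totals gave -0.0082 for *rps27.2* and -0.054 for *rplp0*, the median ratio gave -0.0049 for *rplp0* and quantile normalization -0.29. With 1 library left out the values ranged from -0.18 to 0.39 for *rpl22*, -0.79 to 0.15 for *rpl22l1*, -0.48 to 0.14 for *rplp2*, -0.37 to 0.61 for *rplp2l*, -0.53 to 0.12 for *rps26*, -0.19 to 0.25 for *rps27.2*, -0.38 to 0.24 for *rplp0* and -0.26 to 0.44 for *rpl39*.

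Paralog differences in percentage points with 1 library left out were 16.4 to 24.1 for *rpl5b*, 0.324 to 0.491 for *rps8b*, 1.92 to 7.97 for *rplp2l*, -4.38 to -3.04 for *rps26l*, -5.29 to -1.67 for *rpl22l1*, 4.44 to 12.5 for *rps27.2*, -6.31 to 4.68 for *rpl7l1* and -0.341 to 3.12 for *rps27l*.

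Same-numbered libraries did not deviate together over all genes (r of -0.07, -0.05 and -0.14). With the replicate block 0 ribosomal protein genes were called. The block cannot change a difference of means in this balanced design, so it says nothing of the paralog differences. The call of *dgat1a* was lost with the block (limma adjusted p = 0.0696), with a constant prior variance (0.0507), rescaled to the ribosomal protein median (0.208) and with averaged libraries (0.287), within a range of 0.000207 to 0.287 over all alternatives for *dgat1a*.

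Single-cell shares of corrected counts are given in the order stressed, inflammatory, melanocytic, proliferative, invasive and TME. They were 34.3%, 34.4%, 30.7%, 30.6%, 26.7% and 23.0% in cells with 2000 UMIs or more, 34.0%, 34.6%, 31.4%, 30.9%, 26.4% and 23.6% as means of cells, and 32.9%, 33.4%, 30.2%, 29.6%, 25.6% and 22.6% for structural names only. Without mitochondrially encoded genes they were 34.6%, 35.1%, 31.8%, 31.1%, 26.9% and 24.4%, and of raw UMIs 37.0%, 36.6%, 32.9%, 33.0%, 29.0% and 23.5%. Without cells above 10% mitochondrial UMIs stressed, inflammatory, melanocytic and TME cells had 34.3%, 34.6%, 31.4% and 24.0%. A bulk total without mitochondrially encoded genes was not run, since 0 are listed there, nor paralog shares in single cells for structural names only.

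The raw depth of the bulk libraries is unknown, and 1 single-cell library gives no spread between tumors.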
